A study of Mus musculus with 10 samples.

Results

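In the H3K4me3 ChIP-seq of mouse embryonic stem cells that carry the R form of Dnmt3a2, 388 of 32293 tabled regions held no read at all, although each held at least 10 RP10M in the cells with the WWD form and in those with the WT form. RP10M stands for reads at a region per 10000000 reads of the library total and is the unit of every level below. These 388 regions were chosen by exactly those values, so their emptiness in R and their levels in WWD and WT are a description and were not tested. Of all regions in the table, 17.9% held no R read. The 388 made up 1.20% of the regions of the table and 2.04% of the 19037 regions that reached 10 RP10M in both WWD and WT (exact 95% interval 1.84 to 2.25%). The other 18649 regions that reached this minimum had between 1 and 2734 R reads and serve below as the comparison.

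All cells were J1 embryonic stem cells of the mouse with the Dnmt TKO background. Such cells lack the DNA methyltransferases Dnmt1, Dnmt3a and Dnmt3b, and here they expressed a Dnmt3a2 construct labelled R, WWD or WT, at passages 7 to 10. H3K4me3 was profiled in 1 sample for each construct, labelled as line 1, after chromatin was cut to between 160 and 480 bp with micrococcal nuclease and sonication. Dnmt3a2 itself was profiled through its FLAG tag in 2 samples per construct, line 1 and bulk, but the tables hold 1 Dnmt3a2 column per construct and do not show which sample or samples it holds. The labels do not say which residues differ in R and WWD, whether line 1 is a single clone, or what drives the constructs. The input was left out of the analysis, and no background was subtracted from any value.

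H3K4me3 is the trimethylation of lysine 4 on histone H3. It sits on the nucleosomes that flank the start sites of active and poised genes, and is sharpest over CpG islands. Dnmt3a2 is the short isoform of Dnmt3a that embryonic stem cells use, and it lacks part of the N-terminus of the long isoform. The ADD domain of Dnmt3a binds the tail of histone H3 when lysine 4 is unmethylated, and methylation of that lysine weakens the binding, which is one way in which active promoters stay free of DNA methylation.

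The H3K4me3 libraries stood for 27424019 reads in R, 26012284 in WWD and 18801269 in WT, and 9.29% of the reads in R, 9.87% in WWD and 11.1% in WT lay in the tabled regions. Pooled over all regions, H3K4me3 in R, in RP10M, was 0.838 times that in WT, and in WWD it was 0.891 times that in WT. Of all regions, 17.9% held 0 reads in R, 11.9% in WWD and 8.10% in WT, and the 388 were 6.70% of the 5791 regions without an R read. The remaining 5403 were below the minimum in WWD, in WT or in both, including 1303 that were empty in the 3 libraries. With 1 H3K4me3 library per construct there is no replicate check anywhere below and no test was run. The intervals are exact 95% intervals that cover counting error only and treat regions as independent. In ChIP of bulk cells, fewer cells with the mark and less of the mark per cell cannot be told apart.

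Being empty in a single library happened far more often in R than in the other constructs. The same rule with WWD as the empty library found 79 regions among 17829, a share of 0.443% (interval 0.351 to 0.552%). With WT as the empty library it found 24 among 17202, a share of 0.140% (0.0894 to 0.208%). R therefore had 4.91 times as many such regions as WWD and 16.2 times as many as WT. R had the most total reads of the 3 libraries, while reads at the tabled regions numbered 2546815 in R, 2567169 in WWD and 2083427 in WT, and the part of this in the counts was not tested. The order held at both other minimums tried, with 984 regions in R, 309 in WWD and 121 in WT at 5 RP10M, and 77 in R, 9 in WWD and 4 in WT at 20.

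Within R, 0 was the commonest of the low read numbers. Beside the 388 regions with 0 reads, 156 of the 19037 regions past the minimum had 1 read, 102 had 2, 75 had 3, 82 had 4 and 58 had 5. WWD showed a smaller step, with 79 regions at 0 reads and 40 at 1 read. WT showed no step, with 24 regions at 0 reads and 27 at 1 read. At the other end, 89.5% of regions past the minimum in WWD and WT held over 20 reads in R, so the empty regions were a small group beside a large majority that kept the mark.

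**Figure D1:**
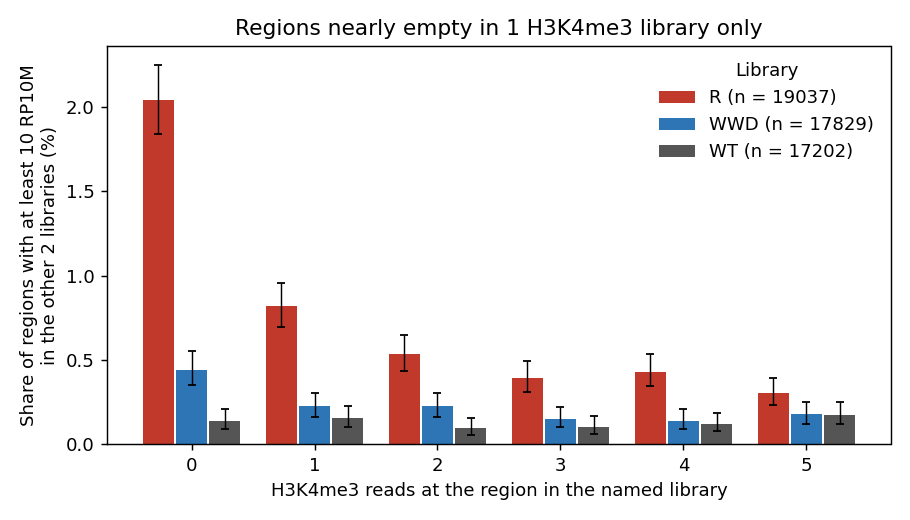
Share of regions with 0 to 5 H3K4me3 reads in the named library, among regions with at least 10 RP10M in the other 2 libraries; error bars are exact 95% intervals over regions. The bar at 0 reads is 2.04% in R, 0.443% in WWD and 0.140% in WT.

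Most of the 388 regions were weakly marked where the mark was present. H3K4me3 at these regions ran from 10.4 to 66.1 RP10M in WWD with a median of 17.7, and from 10.1 to 68.1 in WT with a median of 17.6. In the other regions past the minimum the medians were 39.2 in WWD and 43.6 in WT. The share of empty regions dropped with the mean level of WWD and WT. It was 8.75% of the 2662 regions at 10 to 20 RP10M, 3.11% of the 3602 at 20 to 30, 0.723% of the 5394 at 30 to 50, and 0.0542% of the 7379 at 50 or more, which is 4 regions. A count of 0 in R allows up to 3 reads, or 1.09 RP10M. Against that floor, set per library, R was at least 9.49-fold to at least 60.4-fold lower than WWD over the 388 regions, and at least 9.24-fold to at least 62.2-fold lower than WT.

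The rule held both WWD and WT at or above the minimum and set no other relation between them. Within that limit, the 2 constructs were evenly balanced at these regions. WWD was above WT at 187 of the 388 and at or below it at 201. The median log2 ratio of WWD to WT, with a pseudocount of 3.72 RP10M, was -0.016 (interval of the median -0.053 to 0.050), and 0.11 after each library was centred on its median. It was -0.12 at the other regions past the minimum and -0.13 over all regions. At 17 regions WWD was over 2-fold above WT on this scale, a share of 4.38%, where 8.44% of all regions passed that fold. At 17 it was over 2-fold below WT, also 4.38%, where 15.0% of all regions did. All regions include 3849 empty in WWD and 2616 empty in WT, which the minimum leaves out. The shares of all regions are therefore not a like comparison. At the other regions past the minimum the shares on this scale were 3.85% above and 8.26% below. The share above was within the interval at the 388 (2.57 to 6.92%) and the share below was outside it. These sets differ in level, with medians of 17.7 in WWD and 17.6 in WT at the 388, against 39.2 and 43.6. A minimum in both libraries limits how far weak regions can differ, so this is not a like comparison either. The pseudocount narrows ratios most at weak regions. Without it, WWD was over 2-fold above WT at 32 of the 388 and over 2-fold below at 28. At the other regions past the minimum these counts were 1032 and 1994 of 18649.

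**Figure D2:**
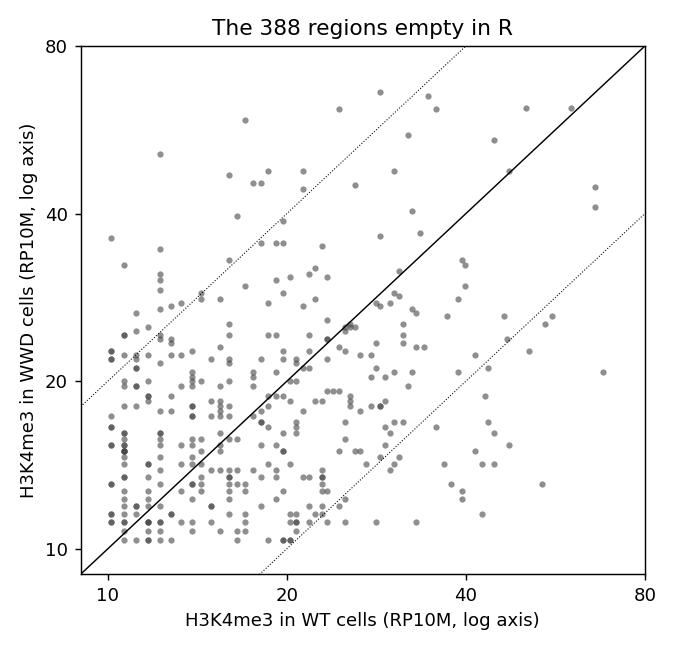
H3K4me3 in WWD cells against WT cells at the 388 regions without an R read, in RP10M on log axes; the solid line marks equal levels and the dotted lines mark a 2-fold difference. WWD was above WT at 187 regions and at or below it at 201. Without a pseudocount, as drawn, it was over 2-fold above WT at 32 and over 2-fold below at 28.

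The 4 regions with the highest mean level showed how complete the gap in R could be. Chromosome 4, 116924639 to 116924738 (mm9), held 0 reads in R, 161 in WWD and 113 in WT. That is 61.9 RP10M in WWD and 60.1 in WT, so R was at least 56.6-fold lower than WWD and at least 54.9-fold lower than WT. The nearest other H3K4me3 region was 36659 bp away, but an H3K4me2 region lay 364 bp away. Chromosome 10, 70747420 to 70747519, held 0 reads in R, 161 in WWD and 95 in WT. The region 273 bp to its right held 162 reads in R, 119 in WWD and 100 in WT, so R was at 59.1 RP10M, WWD at 45.7 and WT at 53.2 there. There R was the highest of the 3 libraries.

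Chromosome 3, 104023597 to 104023696, held 0 reads in R, 116 in WWD and 124 in WT, and had a region on either side. The one 439 bp to the left was nearly free of reads in all 3 libraries, with 7 in R, 0 in WWD and 9 in WT. The one 441 bp to the right held 76 reads in R, 63 in WWD and 74 in WT. Chromosome 1, 92949756 to 92949855, held 0 reads in R, 107 in WWD and 124 in WT, while the region 260 bp to its right held 122 in R, 90 in WWD and 112 in WT. At both places the gap in R ended before the next tabled region on the right.

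Further down the list the same picture recurred, with exceptions. Chromosome 16, 14163073 to 14163172, held 0 reads in R, 169 in WWD and 65 in WT, and the region 491 bp to its right held 82 in R, 128 in WWD and 154 in WT. Chromosome 1, 94831060 to 94831159, held 0 in R, 141 in WWD and 84 in WT, and the region 385 bp to its left held 142 in R, 76 in WWD and 32 in WT. R was again the highest of the 3 libraries beside its own gap. Chromosome 10, 77069037 to 77069136, had the highest WWD level of the 388, with 0 reads in R, 172 in WWD and 54 in WT. The region 258 bp to its right held 100 reads in R, 142 in WWD and 134 in WT. Chromosome X, 132420143 to 132420242, held 0 in R, 68 in WWD and 105 in WT, and the region 313 bp away had 38 in R, 87 in WWD and 157 in WT, so R was low there too but not empty.

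Elsewhere the neighbouring region was empty in R too, or no other region was close enough to read. Chromosome 3, 93247940 to 93248039, held 0 reads in R, 160 in WWD and 46 in WT, and its neighbour 216 bp to the right was itself among the 388, with 0 in R, 35 in WWD and 20 in WT. Chromosome 5, 117041781 to 117041880, had the highest WT level of the 388, with 0 reads in R, 54 in WWD and 128 in WT. No other H3K4me3 region lay within 1000 bp of it, while an H3K4me2 region lay 12 bp away. Chromosome 4, 88940819 to 88940918, leaned the other way with 0 in R, 153 in WWD and 32 in WT, and was 8309 bp from the next H3K4me3 region. Of the 20 regions with the highest mean level, WWD was above WT at 12, and a region on chromosome 18 with 0 reads in R, 124 in WWD and 89 in WT was among the most even.

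Around the 388 regions, R cells carried H3K4me3 at some of the places where it could be read, though at fewer than WWD or WT cells. Another tabled region lay within 500 bp of 164 of the 388. The nearest such region reached 10 RP10M in R for 91 of the 164, or 55.5% (interval 47.5 to 63.2%), against 107 of the 164 in WWD and 124 in WT. No such share is given here for the other regions past the minimum. The median at these nearest regions was 12.8 RP10M in R, 16.9 in WWD and 21.8 in WT. R had 0 reads at 32 of them, WWD at 7 and WT at 6. Among the 20 strongest regions, 12 had a region within 500 bp, and 9 of those 12 reached the minimum in R at the nearest one. In those 91 cases the absence did not extend to the next region of the table, while in the 32 it did.

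**Figure D3:**
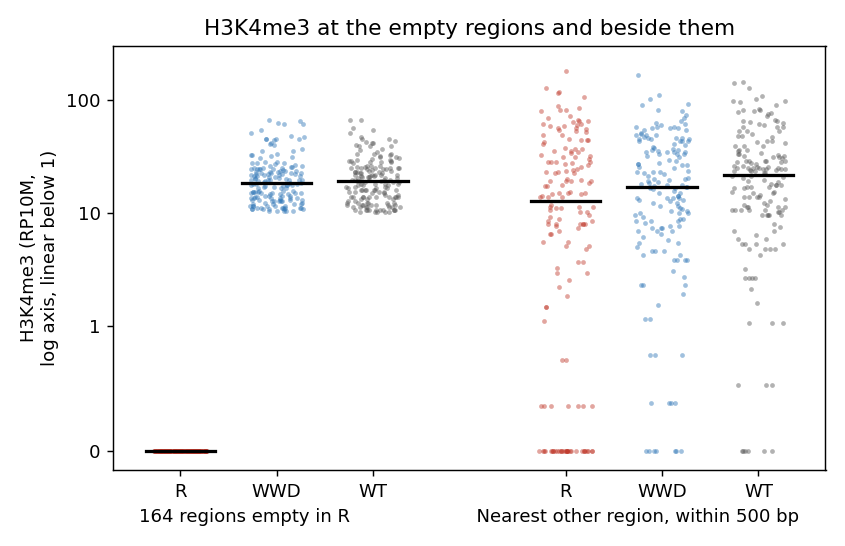
H3K4me3 in RP10M at the 164 regions empty in R that have another tabled region within 500 bp (left) and at that nearest region (right), by construct; points are regions, bars are medians, and the axis is logarithmic above 1 and linear below. R is at 0 on the left by the rule, and its median on the right is 12.8, against 16.9 in WWD and 21.8 in WT.

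Taken over all 176 further regions within 500 bp that were not themselves among the 388, R held 0 reads at 28, or 15.9% (10.8 to 22.2%), near the 17.9% of all regions in the table. Within 500 bp of the other regions past the minimum, R held 0 reads at 2.89% of 9031 regions (2.55 to 3.26%). The regions beside the 388 were weaker in all libraries than those beside the other regions. The median was 13.7 RP10M against 31.4 in R, 16.7 against 35.4 in WWD, and 21.0 against 40.4 in WT. WWD was empty at 4.55% of them and WT at 3.41%, against 1.72% in WWD and 0.742% in WT beside the other regions. The part of that lower level in the R values was not tested. Pooled H3K4me3 in R was 0.802 times that in WT beside the 388 and 0.831 times beside the other regions. The median log2 ratio of R to WT was -0.50 beside the 388 and -0.30 beside the other regions. R was over 2-fold below WT at 52 of the 176, or 29.5% (22.9 to 36.9%), where 24.1% of all regions were, and over 2-fold above WT at 14, or 7.95% (4.42 to 13.0%), where 9.06% of all regions were. Both of these shares have intervals that include the share of all regions.

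The excess of empty neighbours was not even over distance. Beyond 500 and up to 1000 bp, R was empty at 12 of 113 regions, or 10.6% (5.61 to 17.8%), against 3.25% of 6612 around the other regions. Such counts leave out the 388, so each empty region in them was below the minimum in WWD or WT. Among regions past the minimum in this band, the 388 included, R was empty at 0 of 66 (0 to 5.44%), against 1.12% of 5354. Beyond 1000 and up to 2000 bp R was empty at 5 of 68 of the regions outside the 388, or 7.35% (2.43 to 16.3%), against 4.96% of 3205, and beyond 5000 and up to 20000 bp at 15.5% of 502 (12.5 to 19.0%), against 16.6% of 9974. In the last 2 of these bands the share beside the other regions lay within the interval beside the 388. Between them, at 2000 to 5000 bp, R was empty at 20.3% of 69 regions (11.6 to 31.7%), against 10.6% of 2019, and WWD and WT were also empty more often there, at 13.0% in WWD and 8.70% in WT. Counting only regions past the minimum, R was empty there at 0 of 35 (0 to 10.0%), against 1.81% of 1383. Beyond 1000 and up to 2000 bp this was 2 of 38 (0.644 to 17.7%), against 1.26% of 2470. Pooled R over WT beyond 500 and up to 1000 bp was 0.76 around the 388 and 0.86 around the other regions. It was 0.74 against 0.87 up to 2000 bp, 0.76 against 0.85 up to 5000 bp and 0.87 against 0.84 up to 20000 bp.

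Looking to both sides at up to 1000 bp gave the same account region by region. No other tabled region was that close for 163 of the 388, 188 had one on 1 side, and 37 had one on both. Of the 188, the neighbour reached the minimum in R in 108 cases, in WWD in 124 and in WT in 140, and held 0 R reads in 33. Of the 37, R reached the minimum on at least 1 side in 30, on both sides in 12, and held no read on either side in 2. WWD reached it on at least 1 side in 30 and on both in 17, and WT in 35 and 19. No such counts are given here for the other regions past the minimum.

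Empty regions were seldom next to each other, though more often than the other regions past the minimum were next to one of them. In 4 places a pair of empty regions lay within 500 bp, which is 8 regions or 2.06% of the 388 (0.894 to 4.02%). Of the other regions past the minimum, 0.520% had an empty region within 500 bp (0.422 to 0.634%). No run of consecutive tabled regions on a chromosome held more than 2 empty regions. Besides the pair on chromosome 3 given above, the pairs were chromosome 1 at 88363839 and 88364289, chromosome 5 at 43624905 and 43625374, and chromosome 7 at 150153988 and 150154501. The pair on chromosome 5 had 61 and 35 WWD reads, and 59 and 40 WT reads, with none in R at either. Counted by neighbours, of 105 regions past the minimum within 500 bp of an empty region, 8 were empty in R, or 7.62% (3.35 to 14.5%). Of 7457 such regions within 500 bp of the other regions, 92 were, or 1.23% (0.996 to 1.51%). The 8 are the regions of the 4 pairs counted again, not a second observation. Neither comparison was matched for level, and weak regions were more often empty. The empty share was 8.75% of regions at 10 to 20 RP10M and 0.0542% at 50 or more.

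The rule set a boundary in both directions. The lowest WT value inside it was 19 reads, shared by several regions, such as chromosome 14, 20946957, chromosome 9, 63897582, and chromosome 11, 54927310, with 59, 57 and 34 reads in WWD. The lowest mean level of the 388, at 10.5 RP10M, was at chromosome 11, 68245942, with 0 reads in R, 27 in WWD and 20 in WT. Just outside, chromosome 1, 72301425, had 0 reads in R, 26 in WWD and 31 in WT, so that WWD missed the minimum by less than 1 read. A single read also kept strong regions out. Chromosome 1, 194979407 to 194979506, had 1 read in R, 211 in WWD and 162 in WT, more than any of the 388, and chromosome 13, 43461102 to 43461201, had 1 in R, 159 in WWD and 100 in WT.

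Empty regions were found on all 19 autosomes and on chromosome X, and chromosome 10 held the most. On chromosome 10, 37 of 968 regions past the minimum were empty in R, or 3.82% (2.71 to 5.23%). The median chromosome had 2.06%, and chromosome 2 had 15 of 1468, or 1.02% (0.573 to 1.68%). Of 20 chromosomes compared, these were the 2 whose intervals did not include the share of all chromosomes together, and no allowance was made for having looked at 20. The lowest share was on chromosome 14, with 6 of 627 or 0.957% (0.352 to 2.07%).

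Chromosome 10 also had the lowest pooled R to WT ratio over all its regions, at 0.785, where the other chromosomes compared ranged up to 0.932 on chromosome X. That ratio draws on values the rule used and includes the 37 empty regions. Of all regions on chromosome 10, 19.3% held no R read, within the range of 15.3 to 21.6% over chromosomes. The highest of these shares was on chromosome 14. The regions past the minimum on chromosome 10 had a median level of 39.1 RP10M, against 38.7 to 49.8 on the other autosomes. Within bands of level, chromosome 10 had 13.4% empty regions at 10 to 20 RP10M (8.25 to 20.1%), against 8.49% on the other chromosomes (7.43 to 9.65%). At 20 to 30 it had 5.34% (2.70 to 9.35%) against 2.97% (2.43 to 3.60%), and at 30 to 50 it had 2.20% (0.811 to 4.72%) against 0.644% (0.444 to 0.904%). Chromosome 10 was higher in each band, but its intervals overlapped those of the other chromosomes in all 3 of them. At 30 to 50 the share of the other chromosomes lay below the interval of chromosome 10, and in the other bands it lay within it. Along chromosome 10, windows of 10 Mb ranged from 0 of 46 regions past the minimum in the first (0 to 7.71%) to 11 of 144, or 7.64%, at 80 to 90 Mb (3.87 to 13.3%). Their intervals were wide and these overlapped. Chromosome 10 had 3 of the 79 regions empty in WWD and 1 of the 24 empty in WT.

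**Figure D4:**
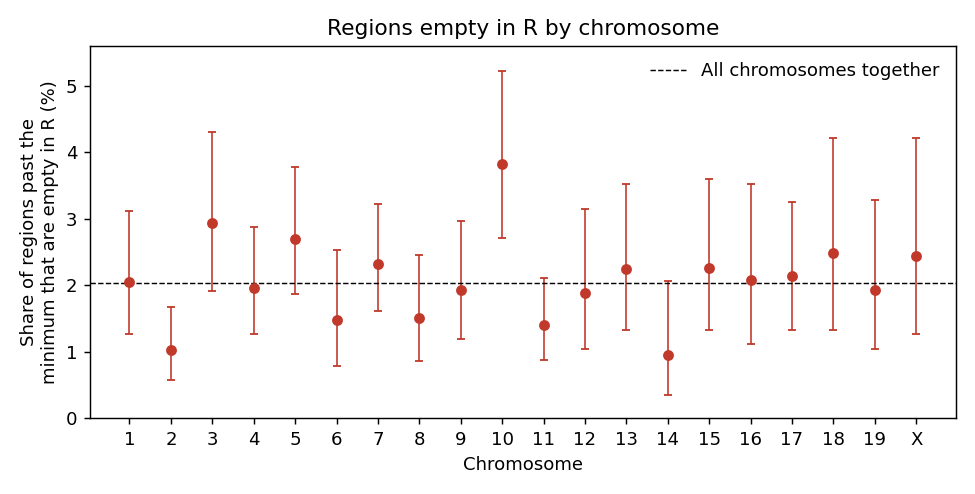
Share of regions past the minimum in WWD and WT that were empty in R, by chromosome, with exact 95% intervals over regions; the dashed line is the share of all chromosomes together, 2.04%. Chromosome 10 stands highest at 3.82% and chromosome 14 lowest at 0.957%.

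Dnmt3a2 reads, which the rule did not use, were about as frequent at the 388 regions as elsewhere. A Dnmt3a2 read was present at 30 of the 388 in R, or 7.73% (5.28 to 10.9%), at 104 in WWD, or 26.8% (22.5 to 31.5%), and at 35 in WT, or 9.02% (6.36 to 12.3%). At the other regions past the minimum the shares were 8.49% in R, 23.8% in WWD and 7.89% in WT. Over all regions they were 9.79% in R, 25.5% in WWD and 9.89% in WT. Each of these 6 shares lay within the interval of the same construct at the 388 regions, so a difference was not detectable at this depth. WWD was the construct with most regions holding a read in each set. Of the Dnmt3a2 reads, 0.0601% in R, 0.158% in WWD and 0.0563% in WT lay in the tabled regions. They were not set against a background, so a read at a region is not shown to be binding.

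Mean Dnmt3a2 signal gave the same order. At the 388 regions it was 0.126 RP10M per region for the R construct (0.104 to 0.150). For WWD it was 0.514 (0.461 to 0.571), and for WT it was 0.177 (0.151 to 0.206). Reads came in clumps, with a mean of 4.10 at regions holding a read in R, 3.31 in WWD and 4.71 in WT. These intervals, which treat reads as independent, are thus too narrow. At the other regions past the minimum the means were 0.161 in R, 0.443 in WWD and 0.135 in WT. The R mean at the 388 lay below that, and the WWD and WT means lay above it, each outside the counting interval. Over all regions the means were 0.186 in R, 0.489 in WWD and 0.174 in WT, and those of WWD and WT lay within the intervals at the 388. With a minimum of 20 RP10M the means at the regions kept were 0.0617 in R, 0.685 in WWD and 0.0919 in WT, so the R and WT means moved by over 1.5 times.

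**Figure D5:**
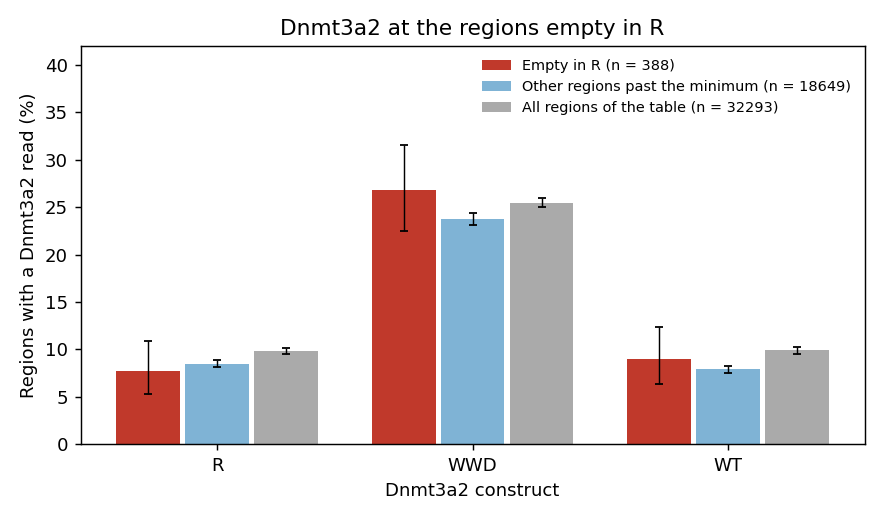
Share of regions with a Dnmt3a2 read by construct, at the 388 regions empty of H3K4me3 in R, the other 18649 regions past the minimum and all 32293 regions; error bars are exact 95% intervals over regions. WWD reached 26.8% at the 388 regions, against 7.73% in R and 9.02% in WT.

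Set against WT, the presence of a Dnmt3a2 read at these regions differed about as often as in the table. A read in WWD with none in WT was found at 90 of the 388, or 23.2% (19.1 to 27.7%), where 22.3% of all regions had this pattern. A read in R with none in WT was found at 25, or 6.44% (4.21 to 9.36%), where 8.56% of all regions had it. The opposite patterns were a read in WT with none in WWD at 21, or 5.41%, where 6.74% of all regions had it, and a read in WT with none in R at 30, or 7.73%, where 8.66% of all regions had it. No Dnmt3a2 read in any construct was found at 250 of the 388, or 64.4% (59.4 to 69.2%), against 64.9% of the other regions past the minimum.

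The regions with most Dnmt3a2 were mostly high in a single construct, as in the rest of the table. Of the 388, 46 held 5 or more Dnmt3a2 reads in some column, or 11.9% (8.81 to 15.5%), against 11.8% of the other regions past the minimum and 13.7% of all regions. Of the 46, 43 did so in 1 column only, or 93.5%, against 94.6% of such regions among the others and 92.9% among all regions. Chromosome 1, 137057714 to 137057813, was the exception with 16 reads in R, 7 in WWD and 9 in WT, and it was a weak H3K4me3 region, with 0 reads in R, 28 in WWD and 29 in WT. Chromosome 8, 18594667 to 18594766, had 5 Dnmt3a2 reads in R, 15 in WWD and 0 in WT, and chromosome 7, 50422895 to 50422994, had 0 in R, 7 in WWD and 5 in WT. R alone was high at chromosome 7, 88297102 to 88297201, with 11 reads in R, 1 in WWD and 0 in WT, and at chromosome 17, 73267702 to 73267801, with 10 in R and 0 in the others.

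WWD alone was high at chromosome 7, 29996670 to 29996769, and at chromosome 8, 28221139 to 28221238, each with 13 Dnmt3a2 reads in WWD and 0 in R and WT. WT led at chromosome 17, 35203004 to 35203103, with 0 reads in R, 3 in WWD and 12 in WT. Of the 20 regions with the highest H3K4me3 in WWD and WT, 15 held no Dnmt3a2 read in any construct, as did 250 of all 388. The region on chromosome 18 named above was one of the 5 that did, with 8 Dnmt3a2 reads in WWD and 0 in R and WT.

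The other tables of the series list regions of H3K4me2 and H3K4me1, marks that extend beyond H3K4me3 at promoters and mark enhancers. An H3K4me2 region lay within 500 bp of 175 of the 388, or 45.1% (40.1 to 50.2%), against 54.7% of the other regions past the minimum and 47.0% of all regions. At 10 to 20 RP10M 47.6% of empty regions had one (41.1 to 54.3%), as did 47.9% of the others (45.9 to 49.9%). At 20 to 30 the shares were 40.2% (31.0 to 49.9%) and 50.8% (49.1 to 52.4%), and at 30 to 50 they were 41.0% (25.6 to 57.9%) and 55.6% (54.2 to 56.9%). The intervals overlapped in these 3 bands, but at 20 to 30 the share of the others lay above the interval at the empty regions.

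An H3K4me1 region lay within 500 bp of 15 of the 388, or 3.87% (2.18 to 6.30%), against 1.69% of the other regions past the minimum (1.51 to 1.89%) and 2.95% of all regions. At 10 to 20 RP10M the shares were 5.15% at empty regions (2.69 to 8.82%) and 2.84% at the others (2.22 to 3.58%), and at 20 to 30 they were 1.79% and 1.86%. No region of any of the other tables, and none of the H3K4me3 table, lay within 500 bp of 116 of the 388, or 29.9% (25.4 to 34.7%), against 22.9% of the other regions past the minimum and 32.3% of all regions.

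The 194 H3K4me2 regions within 500 bp of the 388 gave Dnmt3a2 beside these regions. None of the 388 overlapped an H3K4me2 region, and the libraries behind the Dnmt3a2 values were the same. A Dnmt3a2 read was present at 9.28% of them for the R construct (5.59 to 14.3%), at 30.9% for WWD (24.5 to 37.9%) and at 10.3% for WT (6.41 to 15.5%). At the 9746 H3K4me2 regions beside only the other regions past the minimum, the shares were 11.9% in R, 24.3% in WWD and 11.3% in WT. The values in R and WT lay within the intervals beside the 388, and that in WWD lay just below its interval. Over all 29023 H3K4me2 regions the shares were 15.5% in R, 29.5% in WWD and 16.1% in WT, of which that in WWD lay within its interval and those in R and WT lay above theirs. Which way the regions beside the 388 differed thus depended on the set they were compared with. WWD thus had the most regions with a read at these neighbours as it did at the 388 themselves.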

How the data were processed

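The tables list 32293 H3K4me3, 29023 H3K4me2 and 24302 H3K4me1 regions of mm9, nearly all of 100 bp. The submitters' processing notes name Bowtie and the build mm9. No label or header gives the version of Bowtie or how regions were found. The authors deposited log2 values per region, scaled by each library's total, per the file headers. By their values, the whole reads had a random fraction of a read added, were multiplied by the header's factor, and were written as log2 after adding 1, to 2 decimals. Whole reads were recovered by inverting this form and dropping the fraction. Checked on a simulated table of 32293 regions built with the same form, the rule found again all 388 regions put in, and 389 in total. That table was built from the recovered reads, so the check covers rounding only. It cannot show that the deposited values were made in this form.

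Each H3K4me3 column matched 1 sample, and each Dnmt3a2 column matched a construct. No sample matched 2 other columns, which were left out. Distances are gaps between region ends. The pseudocount is the 10th percentile of positive levels. Intervals are exact Clopper-Pearson for shares, exact Poisson for mean reads and binomial by rank for medians. Reads from PCR are not independent molecules. No genome of mm9 was used, so regions carry no gene names and no sequence is shown.

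The 388 regions, comparisons and naming rule were chosen with earlier results of these data known. The rule names the 20 regions with the highest mean of WWD and WT, those with 5 or more Dnmt3a2 reads in a column, runs of 3 or more (none were found) and 3 regions on either side of the limits. Examples are given. Bands of level and distance, flanks, windows of chromosome 10, and Dnmt3a2 at H3K4me2 regions were added after the data were seen. Alternatives covered the minimum, the reads allowed in R, scaling, deposited values, distance, a cap, filters and the pseudocount. Python 3.11.15, numpy 2.4.6, pandas 2.3.3, scipy 1.17.1 and matplotlib 3.10.9 were used.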

Additional observations from a re-analysis of the deposited data

How the results depend on the processing

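With 1 column per construct and assay, every H3K4me3 value here rests on a single library, and weakly marked regions decide most counts. Which sample or samples a Dnmt3a2 column holds is not shown. No paired analysis was possible because no construct had 2 columns of an assay; leaving out a replicate was not run for the same reason. Of 35 alternative values, 13 stayed within the interval of the reported value or within 1.5 times a count, and 22 did not. At most 1 read in R gave 544 regions, scaling by the reads at regions gave 361, and deposited values gave 405, which included all 388. A minimum of 5 gave 984 regions empty in R, 309 in WWD and 121 in WT; a minimum of 20 gave 77 in R, 9 in WWD and 4 in WT. By its construction the minimum of 20 keeps fewer regions, and with it chromosome 10 had 1.62% empty regions, no pair lay within 500 bp (0%), mean Dnmt3a2 was 0.0617 in R, 0.685 in WWD and 0.0919 in WT. Over only those of the 388 with a Dnmt3a2 read in any construct, the means were 0.353 in R, 1.44 in WWD and 0.498 in WT. At 200 bp, 9.09% of neighbours held 0 R reads, 0% of the 388 had another of them, 33.5% an H3K4me2 and 0.515% an H3K4me1 region; at 2000 bp, 59.8% had an H3K4me2 and 16.2% an H3K4me1 region. The median log2 ratio of WWD to WT was 0.11 after centring each library on its median, where the difference of medians taken off, WWD minus WT, was -0.13, and 0.13 at the 39 regions above the median row mean.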
